A study of Mus musculus with 24 samples.

Results

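Microtubules are built from heterodimers of alpha- and beta-tubulin, and mammals encode several isotypes of each chain in separate genes. The 10 genes described here are 6 beta-tubulin genes (Tubb4b, Tubb5, Tubb6, Tubb2a, Tubb2b and Tubb3) and 4 alpha-tubulin genes (Tuba4a, Tuba1a, Tuba1b and Tuba1c). They were taken by symbol from the 24537 genes of the count table, and each of the 10 symbols matched 1 gene. Their transcripts were read in all 24 RNA-seq libraries of whole hindlimb muscles, the extensor digitorum longus (EDL), rich in fast fibers, and the soleus (SOL), rich in slow fibers.

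The muscles came from Acta1-Cre+/4Fhet mice (Cre+) and Acta1-Cre-/4Fhet controls (Cre-), all aged 2 months. In Cre+ mice the skeletal actin promoter drives Cre in myofibers, Cre removes a LoxP-STOP-LoxP cassette in front of the rtTA trans-activator, and doxycycline (Dox) then switches on the 4F cassette, which encodes the reprogramming factors c-Myc, Klf4, Sox2 and Oct-3/4 (OSKM). The Cre- mice carried the same 4F and rtTA alleles without Cre and also drank water with 1 mg/ml Dox, so Dox and both alleles were common to all groups. Dosing lasted 2.5 days, 5.5 days or 8.5 days, with 2 libraries for each muscle, genotype and time. The study describes the samples of a group as biologically independent, while the labels name no individual mouse, and the p values measure the spread between these libraries.

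Beta-tubulin isotypes differ from one another mostly in their last residues, an acidic tail that lies on the outside of the microtubule. Tails receive glutamate chains from TTLL ligases, and alpha tails additionally lose and regain a final tyrosine through vasohibins and tubulin tyrosine ligase. In resting myofibers microtubules form a lattice around the nuclei and beneath the membrane, and TUBB6 is known to rise in regenerating and dystrophic fibers. Free tubulin also limits its own mRNA, since the factor TTC5 recognizes the first residues of a nascent tubulin chain and recruits mRNA decay.

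The coding ends of the isotypes are shown because they encode the tails in which most of the isotypes compared below differ. Those of Tubb2a and Tubb2b differ in bases but encode the same residues. Each line holds the last 60 coding bases of the reference transcript (GENCODE vM21, GRCm38), read 5′ to 3′ on the sense strand up to the stop codon, with codons for glutamate and aspartate in capitals.
Tubb4b: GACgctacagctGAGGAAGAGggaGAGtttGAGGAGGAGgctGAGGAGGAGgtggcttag
Tubb5: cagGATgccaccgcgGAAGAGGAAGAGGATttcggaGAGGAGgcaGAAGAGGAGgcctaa
Tubb2a: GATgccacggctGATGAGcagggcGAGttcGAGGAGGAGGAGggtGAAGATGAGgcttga
Tubb2b: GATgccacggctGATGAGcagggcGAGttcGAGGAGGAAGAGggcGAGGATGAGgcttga
Tuba4a: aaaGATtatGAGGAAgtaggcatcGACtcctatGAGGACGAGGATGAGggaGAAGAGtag
Of the 20 codons in this stretch, 11 were acidic in Tubb4b, Tubb5, Tubb6, Tubb2a and Tubb2b, and 10 in Tubb3. Tuba4a had 11 acidic codons, and its reading frame ended in a glutamate codon.

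The opposite end of the reading frame, which encodes the stretch read by TTC5, was nearly the same within each family. The first 12 coding bases are in capitals below and the next codon is in lower case.
Tubb4b: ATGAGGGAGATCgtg
Tubb5: ATGAGGGAAATCgtg
Tubb2a: ATGCGCGAGATCgtg
Tuba4a: ATGCGCGAGTGCatt
Tuba1b: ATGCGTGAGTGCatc
Tuba1a and Tuba1c had the same 15 bases as Tuba1b, and Tubb3 the same as Tubb4b. Over the whole reading frame, the coding sequences of Tuba1a and Tuba1b were 98.3% identical, those of Tubb2a and Tubb2b 96.5%, and those of Tubb4b and Tubb5 82.2%.

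The genes lie on 7 chromosomes of GRCm38. Tubb4b (NM_146116) is at chr2:25222158-25224702 on the minus strand, and the plus-strand gene Fam166a overlaps it. Tubb5 (NM_011655) is at chr17:35833920-35838301, Tubb2a (NM_009450) at chr13:34074280-34078008 and Tubb2b (NM_023716) at chr13:34127008-34130354, all on the minus strand. Tubb3 (NM_023279) is at chr8:123411564-123422010 on the plus strand, and Tubb6 (NM_026473) is on the plus strand of chromosome 18. Tuba4a (NM_001313724) is at chr1:75214972-75219294 on the minus strand and overlaps the plus-strand gene Stk16. Tuba1b (NM_011654, chr15:98931431-98934390), Tuba1a (NM_011653, chr15:98949847-98953501) and Tuba1c (NM_009448, chr15:99029891-99038105) form a cluster, with Tuba1c on the plus strand and the other two on the minus strand.

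Near-identical copies limit how well these genes could be counted, because a read that aligned to several places was not counted. The share of 50-base windows of the reference transcript found in no other annotated transcript, on either strand, was 100% for Tubb3 and Tubb6 and 99.9% for Tubb5. It was 60.7% for Tubb2b, 51.2% for Tuba4a, 50.4% for Tubb2a and 44.5% for Tubb4b, whose other windows recur mostly in the pseudogenes Tubb4b-ps1 and Tubb4b-ps2. It fell to 39.0% for Tuba1c, 24.5% for Tuba1a and 16.9% for Tuba1b. For Tuba4a, 1330 of the 2791 windows lie in the overlap with Stk16, where a strand setting, not given in the sources used here, decides which gene a read counts for. Levels of Tubb4b, Tubb2a, Tubb2b, Tuba1a, Tuba1b and Tuba1c are therefore understated against those of Tubb5 and Tubb6, while a ratio of the same gene between libraries uses the same countable bases each time.

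The libraries held between 36088781 and 54679082 counted reads (median 44243960). Pou5f1, the mouse gene of Oct-3/4, was at 17.5 to 76.2 FPKM in the 4 Cre+ EDL libraries of 2.5 and 8.5 days and at 5.02 to 12.2 FPKM in the 4 Cre+ SOL libraries, against at most 0.0896 FPKM in the Cre- libraries of these days. At 5.5 days it reached only 1.02 and 27.7 FPKM in the Cre+ EDL libraries and 0.0785 and 0.387 FPKM in the Cre+ SOL libraries. The study set the 5.5-day samples aside as outliers, and they are kept apart here. To give FPKM, each count was scaled by its gene's exon length and the library's total, whereas tests used counts scaled by TMM, a normalization that centers most genes. With the total count alone as scale, the median log2 fold change over all genes tested at 2.5 days in EDL was 0.28 instead of -0.05, so ratios of FPKM exceed the tested fold changes below. In all comparisons a gene was called where its adjusted p (edgeR, Benjamini-Hochberg over all genes tested) was under 0.05 and its log2 fold change lay beyond 0.5 in either direction. By this rule Pou5f1, Sox2, Klf4 and Myc were all called higher in Cre+ EDL muscles at 2.5 and 8.5 days. In SOL at these days Pou5f1 and Sox2 were called higher. Klf4 (log2 fold change 0.08 and -0.04) and Myc (2.18 and 2.37, adjusted p = 0.0971 and 0.056) were not called there. Since whole muscles were sequenced, less RNA per cell and fewer cells of a type cannot be told apart in any of these values.

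In Cre- muscles the tubulin transcripts were dominated by Tuba4a and Tubb4b. Over the 4 Cre- EDL libraries of 2.5 and 8.5 days, Tuba4a, the alpha isotype typical of differentiated muscle and blood platelets, averaged 300.0 FPKM (191 to 394). Tubb4b, a broadly expressed beta isotype, averaged 83.2 FPKM (66.4 to 96.2), and the ranges of these genes overlapped neither each other nor that of the next gene. Tuba1a followed with 36.5 FPKM, then Tubb5 with 23.5, Tubb6 with 13.1, Tubb2a with 11.5 and Tuba1b with 8.94 FPKM, where each gene's range overlapped that of its neighbor in the order. Tubb2b (1.99 FPKM), Tuba1c (1.14 FPKM) and the neuronal isotype Tubb3 (0.165 FPKM) were lowest. Tubb3 had between 3 and 42 counts in every one of the 24 libraries. The order was the same in Cre- SOL muscles, with Tuba4a at 308 FPKM and Tubb4b at 82.4 FPKM, although the ranges of Tubb4b and Tuba1a overlapped there.

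**Figure D1:**
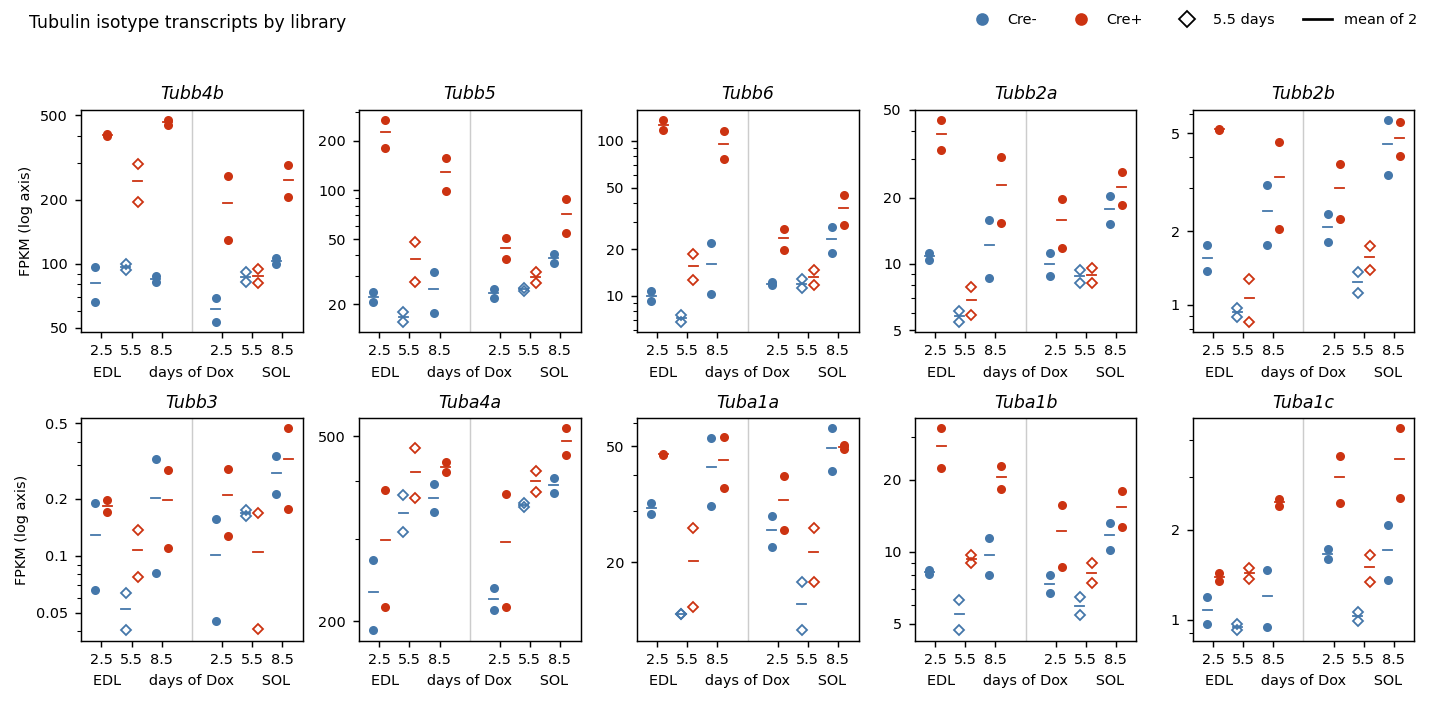
FPKM (log axis, counts scaled by exon length and library total) of each isotype in every library by days of Dox, with EDL on the left and SOL on the right of each panel. Points are libraries (blue Cre-, red Cre+, open diamonds 5.5 days) and bars are means of 2, and the Cre+ EDL points of Tubb4b, Tubb5 and Tubb6 at 2.5 and 8.5 days lie above all Cre- points of their panels.

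After 2.5 days of Dox, 6 of the 10 isotypes were higher in Cre+ than in Cre- EDL muscles and none was lower, where 13.8% of the 15372 genes tested were called higher and 10.2% lower. The rise was in the beta-tubulins: Tubb6, Tubb5, Tubb4b, Tubb2a and Tubb2b all passed the test, and Tuba1b was the alpha-tubulin that did. The median log2 fold change of the 10 was 1.41, against -0.05 over all genes tested. Tubb6, a beta isotype linked to fiber regeneration and to disorganized microtubules, was at 9.25 and 10.7 FPKM in the Cre- libraries and at 137 and 117 FPKM in the Cre+ libraries. Its log2 fold change was 3.34 ± 0.35 (SE, adjusted p = 4.69e-05), a 10.1-fold difference. Tubb5, the beta isotype most used by dividing and developing cells, was at 20.7 and 23.9 FPKM in Cre- and at 181 and 269 FPKM in Cre+ libraries. It rose by a log2 fold change of 2.99 ± 0.32 (SE, adjusted p = 5.31e-05). For both genes the lowest Cre+ library was several times the highest Cre- library.

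Tubb4b, already the most abundant beta isotype, went from 66.4 and 96.2 FPKM in Cre- to 408 and 401 FPKM in Cre+ libraries, a log2 fold change of 1.98 ± 0.28 (SE, adjusted p = 0.000344). With this it stood above Tuba4a in the mean of the Cre+ EDL libraries of both days (434 against 365 FPKM), although their ranges overlapped. Tubb2a, a beta isotype abundant in neurons, was at 11.2 and 10.4 FPKM in Cre- and at 32.9 and 45.1 FPKM in Cre+ libraries (log2 fold change 1.51 ± 0.34 SE, adjusted p = 0.00536). Its near copy Tubb2b was at 1.37 and 1.75 FPKM in Cre- and at 5.19 and 5.23 FPKM in Cre+ libraries. The log2 fold change of Tubb2b was 1.41 ± 0.39 (SE, adjusted p = 0.0168), and this call was lost without either Cre- library (adjusted p = 0.122 without replicate 1 and 0.0516 without replicate 2) and without Cre+ replicate 2 (0.0626). Tuba1b, a ubiquitous alpha isotype, was at 8.08 and 8.37 FPKM in Cre- and at 22.4 and 32.7 FPKM in Cre+ libraries (log2 fold change 1.40 ± 0.27 SE, adjusted p = 0.00218).

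The other alpha isotypes and Tubb3 did not pass the test at 2.5 days. Tuba4a was at 191 and 271 FPKM in Cre- and at 383 and 215 FPKM in Cre+ EDL libraries, and its log2 fold change was 0.05 ± 0.29 (SE). The groups overlapped, and the Tuba4a levels of the Cre+ replicates lay on either side of the higher Cre- library. Tuba1a was at 29.3 and 32.0 FPKM in Cre- and at 47.2 and 46.8 FPKM in Cre+ libraries, with a log2 fold change of 0.29 ± 0.26 (SE). For Tuba1c the log2 fold change was 0.03 ± 0.3 (SE) at levels of 0.965 to 1.43 FPKM, and for Tubb3 it was 0.17 ± 0.8 (SE) with no library above 0.197 FPKM. The FPKM of Tuba1a and Tuba1c were higher in both Cre+ than in both Cre- libraries, whereas their log2 fold changes on the TMM scale did not pass the test.

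After 8.5 days, 4 of the 10 isotypes were higher in Cre+ EDL muscles and none was lower, where 14.1% of all genes tested were called, 7.63% higher and 6.50% lower. Tubb4b was at 82.4 and 87.7 FPKM in Cre- and at 449 and 477 FPKM in Cre+ libraries (log2 fold change 2.27 ± 0.29 SE, adjusted p = 0.000306). Tubb5 was at 17.7 and 31.8 FPKM in Cre- and at 158 and 98.4 FPKM in Cre+ libraries (log2 fold change 2.18 ± 0.31 SE, adjusted p = 0.00061). Tubb6 was at 10.3 and 21.9 FPKM in Cre- and at 116 and 76.1 FPKM in Cre+ libraries (log2 fold change 2.38 ± 0.33 SE, adjusted p = 0.000591). All Cre+ libraries of these 3 genes lay above all Cre- libraries. Tuba1b was at 7.96 and 11.4 FPKM in Cre- and at 22.8 and 18.3 FPKM in Cre+ libraries, and its log2 fold change of 0.90 ± 0.27 (SE, adjusted p = 0.039) lost its call without Cre- replicate 1 (adjusted p = 0.249), Cre+ replicate 1 (0.216) or Cre+ replicate 2 (0.0753).

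Tubb2a and Tubb2b, which had risen at 2.5 days, overlapped between genotypes at 8.5 days. Tubb2a was at 8.66 and 15.8 FPKM in Cre- and at 30.4 and 15.4 FPKM in Cre+ EDL libraries (log2 fold change 0.70 ± 0.33 SE, adjusted p = 0.179). Tubb2b was at 1.76 and 3.07 FPKM in Cre- and at 4.6 and 2.03 FPKM in Cre+ libraries (log2 fold change 0.25 ± 0.38 SE). In both genes 1 Cre+ library was at the level of the Cre- libraries. The differences between the changes at 8.5 and 2.5 days, -1.15 for Tubb2b and -0.81 for Tubb2a on the log2 scale, did not pass the test. In that comparison edgeR and DESeq2 called 0 of the 10 isotypes, none had an unadjusted p under 0.05, and edgeR called 0 of all 15372 genes (1469 at an unadjusted p under 0.05). Tuba1c was at 0.942 and 1.46 FPKM in Cre- and at 2.54 and 2.41 FPKM in Cre+ libraries without passing the test (log2 fold change 0.86 ± 0.3 SE, adjusted p = 0.0707). It was called by DESeq2 (adjusted p = 0.0464), with libraries scaled by total count alone (0.0343) and with all 24 libraries in the edgeR fit (0.0371). Tuba4a (0.04), Tuba1a (-0.11) and Tubb3 (-0.24) had log2 fold changes within 1 SE of 0, and that of Tuba1a turned to 0.09 when libraries were scaled by total count alone.

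Cre- EDL replicate 2 of 8.5 days stood above the other Cre- EDL libraries for several isotypes, among them Tubb6, Tuba1a and Tuba1b. Without it, edgeR called 6 isotypes higher at 8.5 days. Tubb2a (log2 fold change 1.22, adjusted p = 0.048) and Tuba1c (1.23, adjusted p = 0.0362) were then among them.

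**Figure D2:**
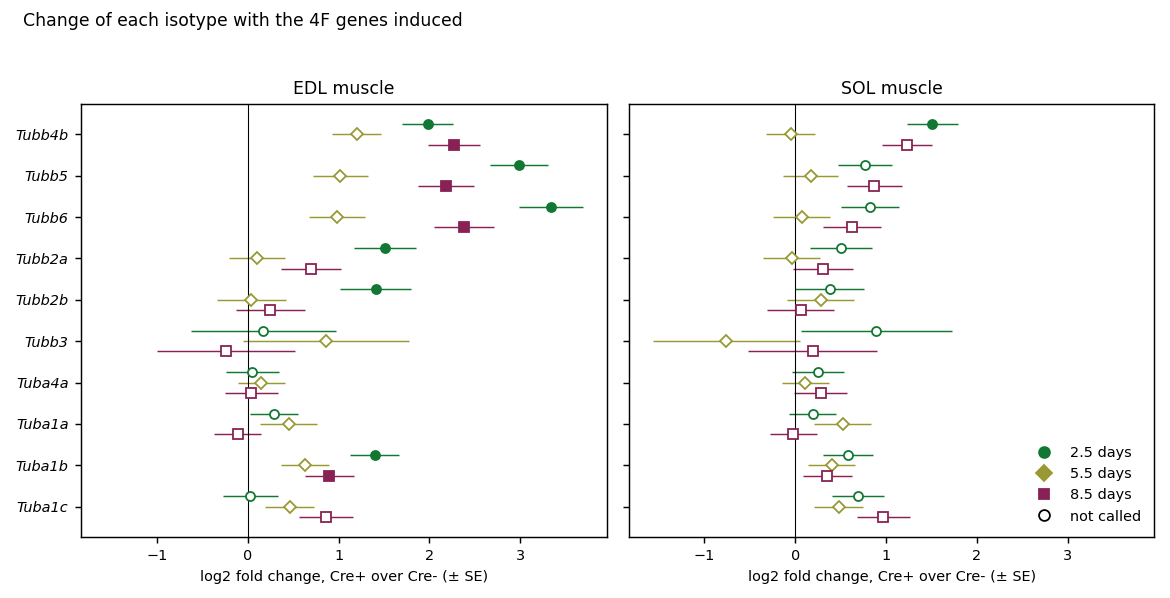
Log2 fold change of each isotype, Cre+ over Cre-, in EDL (left) and SOL (right) muscles, with standard errors from edgeR. Circles, diamonds and squares are 2.5, 5.5 and 8.5 days, filled where called, and the filled symbols are 6 at 2.5 days and 4 at 8.5 days in EDL and Tubb4b at 2.5 days in SOL.

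At 5.5 days edgeR called 0 of the 10 isotypes in EDL muscles, where 0.304% of 15478 genes tested were called (0.258% higher and 0.0452% lower) and 1307 had an unadjusted p under 0.05. Of the isotypes, 4 had an unadjusted p under 0.05, and DESeq2 called 2 in the same set of libraries and 3 from the 4 EDL libraries alone. Tubb4b was at 99.9 and 93.6 FPKM in Cre- and at 195 and 295 FPKM in Cre+ libraries (log2 fold change 1.2 ± 0.27 SE, adjusted p = 0.0769). Both Cre+ libraries exceeded both Cre- libraries, and without Cre+ replicate 1, the library with the lower Pou5f1 level, the adjusted p of Tubb4b was 0.0216 at a log2 fold change of 1.47. Tubb5 (18 and 15.7 against 27.5 and 47.9 FPKM) and Tubb6 (7.53 and 6.81 against 12.6 and 18.7 FPKM) had log2 fold changes of 1.02 and 0.98 (adjusted p = 0.236 and 0.279). In each of these 3 genes the Cre+ library with 27.7 FPKM of Pou5f1 was the higher of the pair. Among the Cre+ pairs of 2.5 and 8.5 days this varied. In SOL the library with more Pou5f1 was the lower for all 3 genes at 2.5 days and the higher at 8.5 days. In EDL the 3 genes were split at both days, and a link to Pou5f1 was not tested.

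In SOL muscles 1 isotype passed the test after 2.5 days, Tubb4b, where 0.384% of the 15372 genes tested were called, 0.345% higher and 0.0390% lower. It was at 53.4 and 69.3 FPKM in Cre- and at 258 and 129 FPKM in Cre+ libraries, a log2 fold change of 1.51 ± 0.28 (SE, adjusted p = 0.0443). The call was lost without Cre+ replicate 1 (log2 fold change 0.92, adjusted p = 0.286), Cre- replicate 1 (1.36, 0.257) or Cre- replicate 2 (1.67, 0.229). Tubb5 was at 22.0 and 24.8 FPKM in Cre- and at 50.9 and 38 FPKM in Cre+ libraries, and Tubb6 at 12.2 and 11.8 against 27.2 and 19.8 FPKM. Their log2 fold changes of 0.77 ± 0.3 and 0.82 ± 0.32 (SE) did not pass the test, although both Cre+ libraries of each gene lay above both Cre- libraries. Tubb2a (0.50 ± 0.34 SE), Tuba1b (0.58 ± 0.27 SE) and Tuba4a (0.25 ± 0.29 SE) did not pass either. In edgeR 4 isotypes had an unadjusted p under 0.05, and DESeq2 called 1 in the same set of libraries. From the 4 SOL libraries alone DESeq2 called 2, Tubb5 (adjusted p = 0.000963) and Tubb6 (0.00218), and not Tubb4b (0.0634).

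After 8.5 days edgeR called 0 isotypes in SOL muscles, where 0.631% of all genes tested were called (0.332% higher and 0.299% lower) and 1015 had an unadjusted p under 0.05. Of the isotypes, 3 had an unadjusted p under 0.05, and DESeq2 called 1 in the same set of libraries and 2 from the 4 SOL libraries alone. Tubb4b was at 99.8 and 107 FPKM in Cre- and at 291 and 207 FPKM in Cre+ libraries (log2 fold change 1.23 ± 0.28 SE, adjusted p = 0.0951), and DESeq2 called it on the same 16 libraries (adjusted p = 0.00139). Tubb5 was at 35.7 and 40.7 FPKM in Cre- and at 88.4 and 54.8 FPKM in Cre+ libraries (log2 fold change 0.87 ± 0.3 SE), and Tubb6 at 18.9 and 27.7 against 44.7 and 28.6 FPKM (0.62 ± 0.32 SE). The Cre+ libraries of all 3 genes lay above the Cre- libraries, by little in Tubb6. At 5.5 days, when Pou5f1 was at 0.0785 and 0.387 FPKM in Cre+ and at most 0.0139 FPKM in Cre- SOL libraries, Tubb4b was at 82.0 and 91.8 FPKM in Cre- and at 94.6 and 80.8 FPKM in Cre+ libraries. Its log2 fold change was -0.05 ± 0.27 (SE) and turned to 0.01 when scaled by total count alone. In SOL at 5.5 days edgeR and DESeq2 called 0 isotypes, 0 of them had an unadjusted p under 0.05, and edgeR called 0% of all genes tested (597 genes at an unadjusted p under 0.05).

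Whether the muscles differed in their change was tested directly. At 2.5 days the change in EDL exceeded that in SOL for Tubb6, by 2.52 ± 0.46 on the log2 scale (SE, adjusted p = 0.0121), and for Tubb5, by 2.22 ± 0.42 (SE, adjusted p = 0.0139), where 4.25% of all genes tested were called, 3.36% higher and 0.891% lower. The 2 calls were lost without Cre- EDL replicate 1 (adjusted p = 0.0571 for Tubb6 and 0.067 for Tubb5), Cre- EDL replicate 2 (0.05 and 0.052) or Cre+ SOL replicate 2 (0.0689 and 0.0804). Without Cre+ EDL replicate 2 that of Tubb5 was lost (0.0614), while the difference stayed between 1.96 and 2.77 for both genes whichever library was left out. For Tubb4b the difference was 0.48 ± 0.39 (SE) and did not pass, so the rise of Tubb4b was not shown to differ between muscles. Tubb2a (1.01 ± 0.47 SE) and Tuba1b (0.83 ± 0.38 SE) did not pass either. The level of Pou5f1 in Cre+ libraries was higher in EDL than in SOL at both days, and its part in these differences was not tested.

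At 8.5 days edgeR called 0 isotypes for a difference in change between muscles, where 0.592% of all genes tested were called (0.533% higher and 0.0585% lower) and 1729 had an unadjusted p under 0.05. There were 3 isotypes with an unadjusted p under 0.05, and DESeq2 called 1. The differences were 1.76 ± 0.45 for Tubb6 (SE, adjusted p = 0.135), 1.31 ± 0.42 for Tubb5 (0.247) and 1.04 ± 0.39 for Tubb4b (0.319) on the log2 scale. Without Cre- EDL replicate 2 the difference for Tubb6 was 2.42. Tubb6 was called (1.85, adjusted p = 0.0081) in a fit with same-numbered EDL and SOL libraries of a genotype and day as a block. That fit was added after the data were seen, and the labels do not state that such libraries share a mouse.

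The levels themselves were compared between muscles within a genotype over both days. In Cre- mice edgeR called 0 of the 10 isotypes, although 21.9% of all genes tested were called between EDL and SOL (10.8% higher and 11.1% lower in EDL), and DESeq2 also called 0. Only Tuba1c (-0.47 ± 0.21 SE, EDL over SOL on the log2 scale) had an unadjusted p under 0.05, while Tubb2b was at -0.55 ± 0.27 (SE). Without Cre- EDL replicate 2 of 8.5 days the value of Tuba1c was -0.65. With same-numbered EDL and SOL libraries as a block, an assumed pairing, Tubb2b was called (-0.56, adjusted p = 0.0199). In Cre+ mice 5 isotypes were called, where 29.6% of all genes tested were, and DESeq2 and the fit with same-numbered libraries as a block each called 6. Tubb6 (1.85 ± 0.23 SE, adjusted p = 4.6e-05), Tubb5 (1.52 ± 0.21 SE, adjusted p = 0.000109), Tubb4b (0.92 ± 0.2 SE, adjusted p = 0.00232) and Tuba1b (0.73 ± 0.19 SE, adjusted p = 0.00763) were higher in EDL. Tuba1c was lower in EDL than in SOL (-0.86 ± 0.21 SE, adjusted p = 0.0048), with 1.35 to 2.54 FPKM in EDL and 2.45 to 4.37 FPKM in SOL libraries.

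The balance of the chains was read from the summed levels of the alpha and of the beta isotypes. In EDL muscles of 2.5 and 8.5 days the 6 beta isotypes summed to 109 to 161 FPKM in Cre- and to 669 to 837 FPKM in Cre+ libraries, a 5.72-fold difference of geometric means. The 4 alpha isotypes summed to 229 to 434 FPKM in Cre- and to 296 to 499 FPKM in Cre+ libraries, a 1.27-fold difference. The ratio of summed beta to summed alpha FPKM was 0.476, 0.458, 0.278 and 0.392 in the Cre- libraries and 1.68, 2.83, 1.52 and 1.34 in the Cre+ libraries, so the beta sum exceeded the alpha sum in every Cre+ and in no Cre- EDL library of these days. In SOL muscles the beta sum went from 98.2 to 202 FPKM in Cre- to 201 to 456 FPKM in Cre+ libraries (2.24-fold), and the ratio from between 0.403 and 0.436 to between 0.600 and 0.827. At 5.5 days the ratio in EDL was 0.338 and 0.370 in Cre- and 0.603 and 0.741 in Cre+ libraries, and in SOL it was 0.342 and 0.367 against 0.329 and 0.322.

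By an exact permutation test within days (two-sided, 36 splits of 4 against 4 libraries), the beta sum, the sum of all 10 isotypes and the ratio each gave p = 0.0556 in both muscles, the smallest p this design allows, and the alpha sum gave p = 0.111 in both. The design can thus not reach 0.05. On the TMM scale the alpha difference in EDL was 0.08 (log2) instead of 0.35 and the beta difference 2.25 instead of 2.52. The ratio of sums within a library does not depend on that scale, but it does depend on which bases of each gene could be counted. The alpha sum here leaves out Tuba8, an alpha isotype of striated muscle outside the 10 genes, which averaged 121 FPKM in Cre- and 75.7 FPKM in Cre+ EDL libraries.

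**Figure D3:**
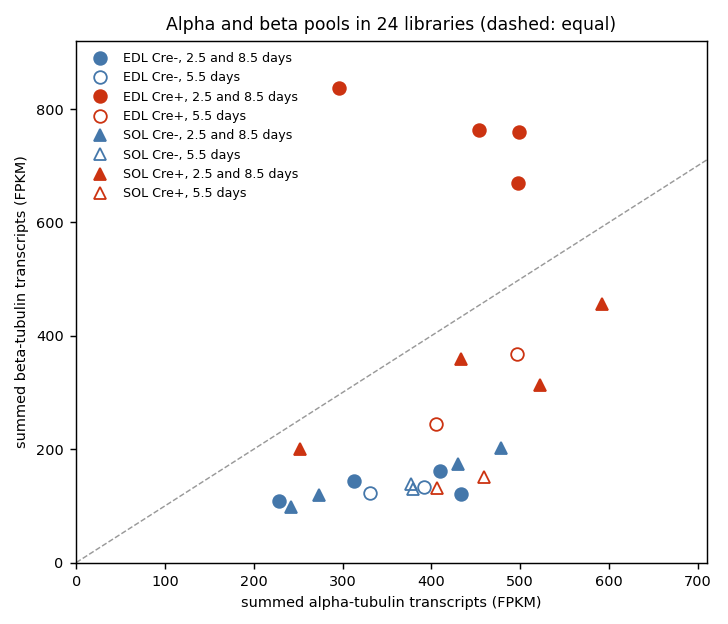
Summed FPKM of the 6 beta isotypes against that of the 4 alpha isotypes in each of the 24 libraries, with EDL as circles and SOL as triangles, Cre- blue and Cre+ red, and 5.5 days open. The dashed line marks equal sums, and the 4 filled red circles, at 669 to 837 FPKM of beta-tubulin, are the points above it.

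The composition of the beta pool was then compared between genotypes within each muscle. As with the ratio of sums, the size of each share depends on which bases of each gene could be counted. In EDL muscles Tubb4b made up 62.7% ± 6.27 of beta FPKM in Cre- and 57.9% ± 10 in Cre+ libraries (SD, n = 4, exact permutation p = 0.5). The share of Tubb5 was 17.5% ± 2.35 and 22.8% ± 7.23 (p = 0.167, exact permutation), and that of Tubb6 9.55% ± 2.78 and 14.6% ± 2.74 (p = 0.111, exact permutation). The share of Tubb2a was 8.63% ± 1.64 in Cre- and 4.00% ± 1.28 in Cre+ libraries, without overlap at either day (exact permutation p = 0.0556, the smallest possible). The mean share of Tubb2a was thus smaller in Cre+ libraries although its own level was called higher at 2.5 days. In SOL muscles Tubb4b took 55.7% ± 2.40 of beta FPKM in Cre- and 66.4% ± 3.66 in Cre+ libraries, while Tubb2a went from 9.30% ± 0.569 to 5.76% ± 0.208 and Tubb5 from 21.0% ± 0.998 to 17.5% ± 2.37 (SD, n = 4, exact permutation p = 0.0556 for each, the smallest possible). The shares of these 3 isotypes did not overlap between genotypes in SOL at either day. Of the 10 shares, 4 in EDL and 5 in SOL gave this smallest p. Adjusted by Benjamini-Hochberg over the 20 permutation tests of shares in both muscles, the p of each of these was 0.124.

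Within the alpha pool Tuba4a kept the largest share in all 16 libraries. It was 86.1% ± 3.42 of alpha FPKM in Cre- and 82.4% ± 6.83 in Cre+ EDL libraries (SD, n = 4, exact permutation p = 0.389) and 86.4% ± 1.31 and 86.8% ± 1.13 in SOL libraries. Tuba1a held 10.8% ± 2.72 and 11.1% ± 3.54 in EDL. Tuba1b held 2.70% ± 0.694 in Cre- and 6.05% ± 3.37 in Cre+ EDL libraries, without overlap at either day (SD, n = 4, exact permutation p = 0.0556, the smallest possible), and its share in Cre+ replicate 2 of 2.5 days, 11%, was the largest. That library also had the lowest Tuba4a share, 72.7%, and the highest beta to alpha ratio. The alpha shares rest on the understated levels of Tuba1a, Tuba1b and Tuba1c, and the pool leaves out Tuba8.

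**Figure D4:**
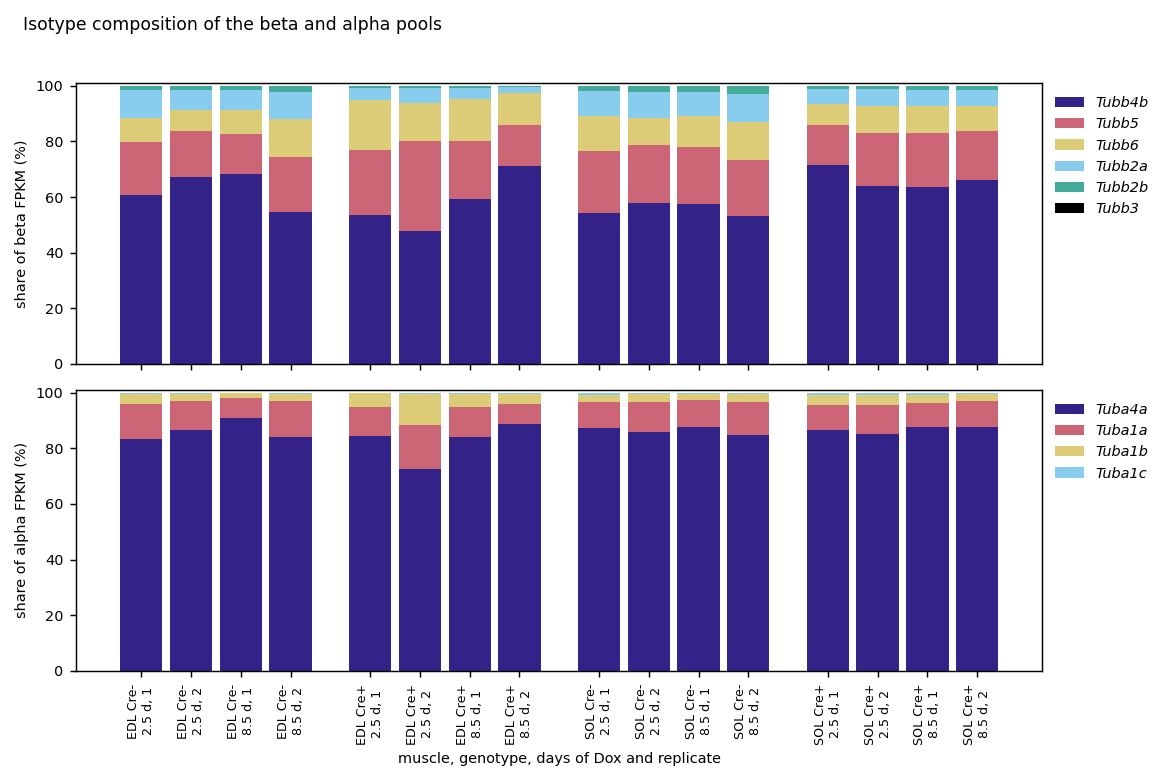
Isotype shares (%) of summed beta FPKM (top) and summed alpha FPKM (bottom) in each of the 16 libraries of 2.5 and 8.5 days. Stacked colors are isotypes, and the Tubb2a band is narrower in every Cre+ than in every Cre- library of the same muscle, with means of 4.00% against 8.63% in EDL and 5.76% against 9.30% in SOL.

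The genes around the isotypes were read from 8 lists of 109 microtubule genes, of which 102 passed the filter on low counts and were tested. After 2.5 days in EDL muscles 27 of them were higher and 4 lower in Cre+ mice (13.8% and 10.2% of all genes tested were), with a median log2 fold change of 0.16 against 1.41 for the 10 isotypes. The count of 31 fell to 20 without Cre- EDL replicate 1 and to 14 without Cre+ EDL replicate 2, and was 47 when libraries were scaled by total count alone. Among other tubulins, Tuba8 was lower (log2 fold change -1.30 ± 0.28 SE, adjusted p = 0.00461). The gamma-tubulins Tubg1 (0.55) and Tubg2 (1.04), which start new microtubules, were higher. In the gamma-tubulin ring list 3 of 12 were higher, Tubgcp4 (0.97), Ninl (0.81) and Cdk5rap2 (0.79), and Pcnt (-0.64), a scaffold of the centrosome, was lower. The most abundant genes of that list, Mzt1 (-0.11) and Mzt2 (-0.04), did not pass.

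Folding of tubulin needs the TRiC chaperonin and dedicated cofactors. Of 8 cofactors 2 were higher, Tbcb (0.97 ± 0.12 SE) and Tbcd (0.51 ± 0.15 SE), while the abundant Tbca (0.08) and Arl2 (-0.10) did not pass, and of 14 TRiC and prefoldin subunits 3 were higher, Cct2 (0.96 ± 0.18 SE), Cct4 (0.87 ± 0.13 SE) and Cct7 (0.54 ± 0.11 SE). Pfdn5, the most abundant of the latter list at 168 FPKM over 16 libraries, was at -0.11 and, like Cct5 (0.15), did not pass the test. Of the 18 tested enzymes that modify tubulin tails and lysines, 9 were higher and none was lower, with a median log2 fold change of 0.58. Vash2, a vasohibin that removes the last tyrosine of alpha-tubulin, rose most (3.28 ± 0.58 SE, adjusted p = 0.00123) from a mean of 0.171 FPKM in Cre- to 1.32 FPKM in Cre+ EDL libraries of both days. Its chaperone partner Svbp (1.21 ± 0.22 SE) and the glutamylase Ttll1 (1.39 ± 0.25 SE) were also higher, whereas the deacetylase Sirt2, the most abundant of the list, was at -0.11.

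None of the 4 genes of tubulin mRNA autoregulation passed the test (edgeR), with log2 fold changes of 0.08 for Ttc5, 0.14 for Scaper, -0.28 for Cnot11 and -0.08 for Cnot1, and Cnot11 was the only 1 of them with an unadjusted p under 0.05 (0.0351). DESeq2 also called 0 of the 4. Of the 26 plus-end and stabilizing proteins 5 were higher and 2 lower. Dclk1 (2.35 ± 0.35 SE) and Map1b (1.67 ± 0.38 SE), both best known from neurons, had the highest values. The lower pair, named after their values were seen, were the plus-end proteins Clasp2 (-0.64 ± 0.14 SE) and Clip2 (-0.62 ± 0.21 SE). Map4, the most abundant at 131 FPKM, was at 0.19 and Map7d1 at 0.22, and neither passed. Of the 14 destabilizing and severing proteins 3 were higher, Stmn2 (2.68 ± 0.51 SE), which binds free tubulin, and the severing enzymes Fign (0.98 ± 0.3 SE) and Spast (0.63 ± 0.17 SE). The severing subunit Katna1 (0.48, adjusted p = 0.0174) stayed under the fold change threshold.

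After 8.5 days in EDL 14 of the 102 were higher and 1 was lower, Clasp2, beside 7.63% and 6.50% of all genes tested. The count of 15 was 7 without Cre- EDL replicate 1, 5 without Cre+ replicate 1 and 9 without Cre+ replicate 2. In SOL muscles edgeR called 0 of the 102 at 2.5 days, where 15 had an unadjusted p under 0.05 and DESeq2 called 1. It called 1 at 8.5 days, the severing enzyme gene Katnal2 (log2 fold change 4.63 ± 0.78 SE, adjusted p = 0.0168), and none without Cre- replicate 1, Cre- replicate 2 or Cre+ replicate 1.

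**Figure D5:**
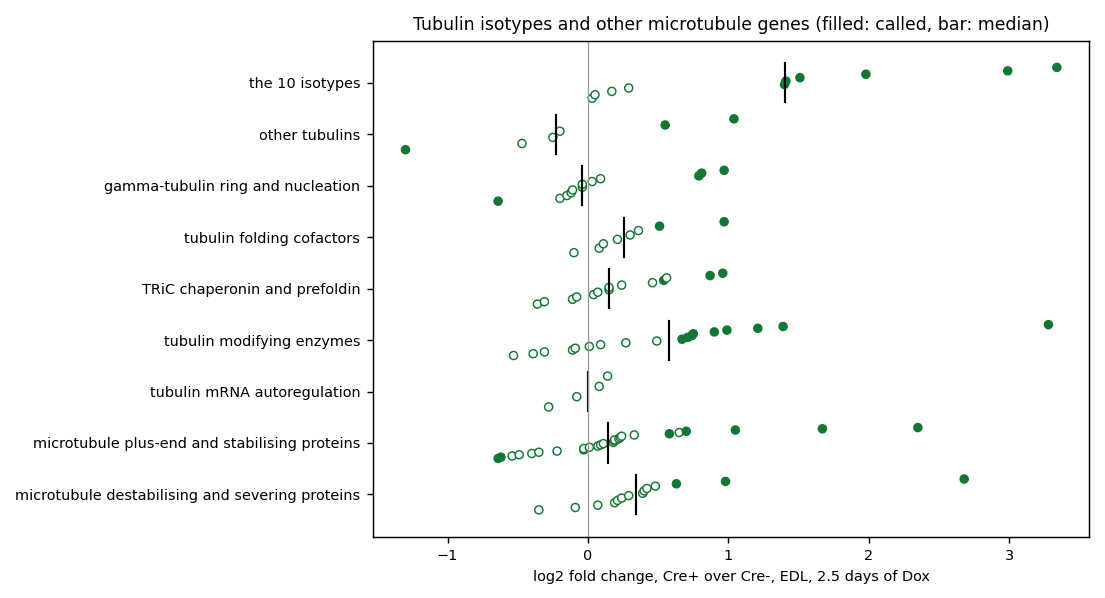
Log2 fold change, Cre+ over Cre- in EDL muscles at 2.5 days, of the 10 isotypes and of each tested gene in 8 microtubule lists. Points are genes, filled where called, and bars are list medians, with the isotypes at 1.41 and the tubulin modifying enzymes at 0.58.

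Markers of the cells in the muscle were read beside these changes. At 2.5 days in EDL 4 of 9 myofiber markers were lower in Cre+ mice, among them Acta1 (log2 fold change -1.16) and Ckm (-1.02), and their summed level was 83200 to 93200 FPKM in the Cre- and 55800 to 70500 FPKM in the Cre+ EDL libraries of 2.5 and 8.5 days. Of 8 endothelial markers 5 were lower. Among 8 markers of regenerating fibers Ncam1 was higher (3.44) and Chrna1 lower (-0.72). The median log2 fold change of these 8 was -0.66 (0.26 at 8.5 days in EDL). Among 7 markers of pericytes and smooth muscle Cspg4 was higher (1.21) and 2 were lower. Of 7 satellite cell markers 1 was lower, Fgfr4. None of the 7 fibroblast, 9 macrophage, 7 Schwann cell, 6 adipocyte or 8 proliferation markers was called in edgeR, where 0, 1, 3, 0 and 0 of them had an unadjusted p under 0.05, and DESeq2 called 1 Schwann cell marker lower. The 8 proliferation markers together summed to at most 1.38 FPKM in Cre+ and 0.902 FPKM in Cre- EDL libraries of 2.5 days. Their median log2 fold change was 0.99, against -0.05 over all genes tested (0.54 against -0.02 at 8.5 days). At such low levels the missing calls show little, and the part of these markers in the isotype levels was not tested. At 8.5 days in EDL 3 of 9 myofiber markers were lower, Acta1 (-0.94), Ckm (-0.81) and Tnnt3 (-0.86), while Ncam1 (2.07) and Cspg4 (2.14) were higher. Of the 8 endothelial markers edgeR and DESeq2 called 0 at 8.5 days, and 0 had an unadjusted p under 0.05. The part of the markers that moved was not tested.

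The 5 genes whose level followed the summed isotypes most closely over the 16 libraries were Cdkn1a (Pearson r = 0.954 of log2 values), Klhl30 (0.953), Mmp15 (0.943), Spon2 (0.941) and Sdf2l1 (0.936), out of 11507 genes with a mean of at least 1 FPKM. Cdkn1a, which encodes the cell cycle inhibitor p21, ranged from 13.6 to 158 FPKM. These values describe the ranking over libraries that share genotype, muscle and scale.

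The sequence before the transcription start is given for Tubb4b and Tubb5, the abundant isotypes that rose at both days in EDL and for which RefSeq holds a window. Each line has the 250 bases before the start (GRCm38.p6, RefSeq, minus strand, 5′ to 3′), at chr2:25224703-25224952 for Tubb4b and chr17:35838302-35838551 for Tubb5. Capitals mark CACGTG, the core site of Myc and Max, and CCAAT in forward orientation or its reverse complement, the site of NF-Y.
Tubb4b: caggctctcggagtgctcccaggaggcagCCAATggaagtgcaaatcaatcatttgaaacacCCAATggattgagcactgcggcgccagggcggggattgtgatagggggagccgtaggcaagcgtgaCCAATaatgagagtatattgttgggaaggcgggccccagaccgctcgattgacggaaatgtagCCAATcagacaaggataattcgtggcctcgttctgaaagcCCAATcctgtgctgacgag
Tubb5: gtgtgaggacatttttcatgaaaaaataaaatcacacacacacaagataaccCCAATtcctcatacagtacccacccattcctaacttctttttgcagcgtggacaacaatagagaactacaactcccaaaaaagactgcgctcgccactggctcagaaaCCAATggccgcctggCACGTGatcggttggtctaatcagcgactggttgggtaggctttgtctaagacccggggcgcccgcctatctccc
Windows of 300 bases, from 250 before to 50 after the start, were held for 8 of the 10 genes and for 32851 RefSeq entries, and were searched on both strands. CACGTG was in 1 of the 8, that of Tubb5 at position -75, and in 7.15% of all windows. CCAAT was in 5 of the 8 (Tubb4b, Tubb5, Tubb3, Tuba1a and Tuba1c) and in 37.4% of all windows. Tubb4b held 5 matches of CCAAT, at -221, -188, -122, -59 and -19, and 0.271% of all windows held 5 or more. GGGCGG, the GC box, was in 7 of the 8 and in 35.7% of all windows, TATAAA in 2 and in 13.6%, and the octamer ATTTGCAT in 0 and in 1.74%. A match describes only these letters in this window, and the window of Tuba1b, a gene that rose at both days, held neither CACGTG nor CCAAT.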

How the data were processed

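RNA was extracted from whole EDL and SOL muscles with Trizol, and polyA libraries were made with a TruSeq RNA kit and sequenced single-end and stranded, per the labels. The authors deposited 1 table of raw counts per gene for 24 libraries, made from reads aligned to mm10 with STAR 2.5.3a and counted over RefSeq exons with HOMER, keeping uniquely aligned reads. FastQC 0.11.2 is also named in the submitters' processing notes. Read length and the strand setting of the counting are not given in the sources used here. Columns were mapped to libraries by name, and 0 columns were left unmapped. The groups follow the labels, with 2 libraries each and 36088781 to 54679082 counts per library. No pair of replicates agreed within sampling noise.

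Counts were tested with edgeR 4.0.16 in R 4.3.3 (quasi-likelihood, TMM, filterByExpr with a minimum count of 10). The 16 libraries of 2.5 and 8.5 days, as 8 groups, shared 1 fit, and the 5.5-day comparisons used a fit of all 24 libraries. DESeq2 1.42.0 was an alternative. FPKM were computed from the deposited counts and exon lengths. Pools and shares were compared by a two-sided exact permutation test within days, whose smallest p is 0.0556. The fitting code was tested on simulated data.

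Same-numbered EDL and SOL libraries deviated together (r from 0.174 to 0.441 in 6 of 6 pairs of groups), so a fit with the muscles of 1 mouse as a block was added after the data were seen. The labels do not state this pairing. Sequences came from GENCODE vM21 transcripts and RefSeq promoter windows. The coding ends of some isotypes are not reported here. The members and lists were chosen with earlier results of these data known. Named besides the 10 isotypes were the OSKM genes, the 2 most abundant genes of each microtubule list, its 2 called genes with the largest absolute change in EDL at 2.5 days (all where at most 5 were called), and the 5 genes most like the summed isotypes. Alternatives changed the normalization, filter, libraries fitted, tool, replicate block and scale of FPKM, and left out each library in turn.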

Additional observations from a re-analysis of the deposited data

Results flagged for a closer look

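Cre- EDL replicate 2 of 8.5 days lay far from the other Cre- EDL libraries of 2.5 and 8.5 days for 3 isotypes. Its level was 21.9 FPKM for Tubb6, where the next library was at 10.7, 53.4 FPKM for Tuba1a, where the next was at 32.0, and 11.4 FPKM for Tuba1b, where the next was at 8.37. These were 3 of 40 groups of 4 libraries examined, and chance gives about 1 in 20, so the number flagged was near that rate. All 3 came from this library, and every isotype was read in the same libraries, so the groups are not independent. The changes of Tubb5 and Tubb6 at 2.5 days differed between muscles in the edgeR test of the difference itself, by 2.22 and 2.52 on the log2 scale, EDL over SOL.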

How the results depend on the processing

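With 2 libraries a group, single libraries limited most calls. Leaving out each library in turn gave 5 to 6 isotypes called at 2.5 days and 3 to 6 at 8.5 days in EDL, 0 to 1 at 5.5 days, and in SOL 0 to 1 at 2.5 days and 0 at 8.5 and 5.5 days. It gave 0 to 2 for the difference between muscles at 2.5 days, 0 to 1 at 8.5 days, 0 to 2 for EDL over SOL in Cre- and 5 to 6 in Cre+ mice. The microtubule lists gave 14 to 33 and 5 to 21 calls in EDL at 2.5 and 8.5 days, and 0 and 0 to 1 in SOL. The changes (log2) of Tubb4b, Tubb5 and Tubb6 in EDL stayed between 1.72 and 3.49 at 2.5 days and between 1.81 and 3.04 at 8.5 days. Signs of uncalled values turned: in EDL at 2.5 days Tuba1c (-0.13 to 0.22), Tuba4a (-0.48 to 0.44) and Tubb3 (-0.41 to 1.15); at 8.5 days Tuba1a (-0.45 to 0.35), Tuba4a (-0.05 to 0.13), Tubb2b (-0.38 to 0.73) and Tubb3 (-1.02 to 1.11); in SOL Tuba4a at 2.5 days (-0.21 to 0.60) and Tubb4b at 5.5 days (-0.17 to 0.06). The share of Tuba1a in EDL (-1.32 to 1.53 points) and of Tuba4a in SOL (-0.16 to 0.871 points) also turned. The pool differences (log2) ranged in EDL from 0.16 to 0.52 for alpha, 2.42 to 2.61 for beta, 1.18 to 1.44 for all and 1.94 to 2.3 for the ratio, and in SOL from 0.16 to 0.58, 0.98 to 1.38, 0.46 to 0.87 and 0.78 to 0.94. Shares without overlap between genotypes at either day numbered 4 to 6 in EDL and 5 to 7 in SOL.

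Scaling by library size alone gave 47, 24 and 1 list calls in EDL at 2.5 and 8.5 days and SOL at 2.5 days, 1 isotype in EDL at 5.5 days, and turned Tuba1a in EDL at 8.5 days (0.09) and Tubb4b in SOL at 5.5 days (0.01). DESeq2 in the same set of libraries called 5 isotypes in EDL at 8.5 days, 2 in EDL at 5.5 days, 1 in SOL at 8.5 days, 6 for EDL over SOL in Cre+ mice, 1 for the difference between muscles at 8.5 days, and 1 list gene in SOL at 2.5 days. Without a filter there was 1 isotype each in EDL at 5.5 and SOL at 8.5 days and 1 list gene in SOL at 2.5 days, and with at least 10 counts in every library 0 list genes in SOL at 8.5 days. With the other set of libraries in the fit 1 isotype was called in SOL at 8.5 days. edgeR on the 4 libraries of a comparison gave 20, 6, 1 and 0 list calls (EDL 2.5 and 8.5 days, SOL 2.5 and 8.5 days) and 0 isotypes in SOL at 2.5 days, and DESeq2 on them gave 9 and 2 list calls at 8.5 days in EDL and SOL and 3, 2 and 2 isotypes in EDL at 5.5, SOL at 2.5 and SOL at 8.5 days. The cause of these shifts was not tested. With the 3 days together, where a p under 0.05 can be reached, the pool differences passed it in EDL (alpha 0.34, beta 2.09, all 1.1, ratio 1.75) and, for alpha (0.28), beta (0.8) and all (0.47), in SOL. The shares of Tubb2a and Tuba1b passed it in both muscles, 3 shares in EDL and 1 in SOL were without overlap at all 3 days, and the share of Tuba4a in SOL turned (-0.261 points). The pool differences of the 3 days were tested on the FPKM scale only. On the TMM scale the alpha difference of 2.5 and 8.5 days was 0.08 in EDL and 0.22 in SOL.

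Same-numbered Cre+ and Cre- libraries did not deviate together (r from -0.171 to 0.058). With 2 libraries a group these values cannot decide whether such libraries share more than a number. With the replicate block the isotypes called were 6 and 3 in EDL and 0 in SOL at 2.5 days (Tubb4b 1.49, adjusted p = 0.0784), and Tuba4a in EDL at 2.5 days turned (-0.02). With same-numbered EDL and SOL libraries as a block, an assumed pairing, 1 isotype was called for the difference at 8.5 days (Tubb6). The 2 calls for the difference at 2.5 days stood. For EDL over SOL this block gave 1 call in Cre- mice (Tubb2b) and 6 in Cre+ mice. Of the single-gene and share values followed under the alternatives, a part of all that were computed, 804 kept direction and side of the threshold, 29 passed it, 21 no longer did and 22 turned.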

Other observations

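Tuba1a and the fibroblast markers were among the levels that were lower in Cre- muscles at 5.5 days. Tuba1a was at 13.3 and 13.3 FPKM in EDL and at 11.7 and 17.2 FPKM in SOL, against 29.3 to 53.4 FPKM in EDL and 22.6 to 57.5 FPKM in SOL at the other days. The summed fibroblast markers were at 394 to 495 FPKM in EDL and 370 to 397 FPKM in SOL at 5.5 days, against 1540 to 1780 FPKM and 652 to 1690 FPKM at the other days. Tuba1b, Tubb2b and the summed satellite cell and endothelial markers were also lower at 5.5 days, without overlap in either muscle. The ranges of Tuba4a and Tubb4b overlapped those of the other days. The study set the 5.5-day samples aside, and these differences were seen in the data and not tested.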
